A study of Mus musculus with 4 samples.

Results

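Leukotrienes and prostaglandins are lipid mediators that myeloid cells make from arachidonic acid, a fatty acid released from cell membranes. In the leukotriene branch, 5-lipoxygenase (Alox5), helped by its membrane partner (Alox5ap), makes the unstable leukotriene A4, which is then hydrolysed to leukotriene B4, a chemoattractant for neutrophils, or joined to glutathione to give the cysteinyl leukotrienes. In the prostaglandin branch, a cyclooxygenase makes prostaglandin H2, terminal synthases turn it into products such as prostaglandin E2, and a dehydrogenase inactivates the product. The enzymes described here were 9 genes of these branches, chosen by name: Alox5, Alox5ap, Lta4h, Ltc4s, Alox15, Ptgs1, Ptgs2, Ptges and Hpgd. They are 9 of the 27998 genes in the deposited count table, and 6 of them had at least 200 UMIs (unique molecular identifiers, each standing for 1 captured transcript) in all. Each was followed across the deposited cell types, the clusters of monocytes, macrophages and dendritic cells, and the CD115hi subsets, in steady state and after GM-CSF, a growth factor for granulocytes and monocytes.

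The cells were splenocytes sorted for CD11b, a surface protein of myeloid cells, and CITE-seq read the RNA and the antibody tags of each cell together. The steady-state library came from untreated mice, and the GM-CSF library from mice given 10 µg of GM-CSF under the skin once daily on 3 days, with cells taken 24 hours after the last injection. Mice in the study were 8 to 12 weeks old, and the methods name wild-type C57BL/6 mice without stating a strain for these libraries. The series holds 4 samples, an RNA and a tag library of each condition, so there is 1 RNA library per condition and no replicate.

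The steady-state library held 4827 cells with a median of 3371 UMIs, and the GM-CSF library held 6804 cells with a median of 4916. Levels are given as CPM, counts per 1000000 UMIs, taken from sums over all cells in a group. All 95% intervals cover counting error only, so they do not measure the spread between mice, and no p-value is given. A gene was counted as past 2-fold in a comparison when its CPM ratio reached 2 in either direction after 0.5 counts had been added to both sums and the 2 groups together held at least 20 UMIs. A sum of 0 allows up to 3 counts, and a fold against such a group is a bound set at 3 counts.

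Several labels need care before the values are read. The deposited granulocyte and neutrophil types both held neutrophil transcripts, at 104073 and 366082 CPM over 10 marker genes in steady state and 102203 and 296916 CPM after GM-CSF. Granulocytes carried more Cxcr2, a chemokine receptor of mature neutrophils, with 2389 and 1484 CPM in the 2 libraries against 335 and 225 CPM in the neutrophil type. The neutrophil type carried Ltf and Camp, genes of the specific granules that neutrophils make while maturing in the bone marrow, with Ltf at 13329 and 11655 CPM against 5.44 and 34.0 CPM in granulocytes. All 214 steady-state and all 20 GM-CSF cells labelled cDC2-A held 3 or more UMIs of 5 NK cell genes, so their label goes against their transcripts. In mixed cluster 4, 27 of the 43 steady-state cells and 0 of the 595 GM-CSF cells did so, and the summed NK cell genes stood at 11806 and 1.57 CPM. Within the MoMacDC bundle, the 6075 cells that the study reclustered as monocytes, macrophages and dendritic cells (5 cell types called here mixed clusters 1, 2, 4 and 5 and progenitor DC), clusters 11, 14 and 15 held 23778, 20315 and 159009 CPM of neutrophil transcripts in 234, 42 and 40 cells. Where setting these cells aside ends a call, turns a direction or moves a value by over 1.5 times, both values are given. The 2 libraries shared 8 cell barcodes, and a doublet caller marked 141 of the steady-state and 186 of the GM-CSF cells.

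All 9 members are protein-coding, and their positions are those of the GRCm38 annotation. Alox5 lies at chr6:116410077-116461178 on the minus strand, Alox5ap at chr5:149264767-149288153 on the plus strand, Lta4h at chr10:93453411-93484875 on the plus strand and Ltc4s at chr11:50236461-50238616 on the minus strand. Alox15 lies at chr11:70344152-70352031 on the minus strand, Ptgs1 at chr2:36230426-36252272 on the plus strand, Ptgs2 at chr1:150100031-150108227 on the plus strand, Ptges at chr2:30889471-30929863 on the minus strand and Hpgd at chr8:56294585-56321043 on the plus strand. Exons of Alox5ap, Ltc4s and Ptgs1 overlap exons of Gm19719, Gm26542 and Gm43621 on the other strand. Whether the counting used strand is not given in the sources used here, so reads from these pairs may be shared.

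Ptgs2, Hpgd and Lta4h carry most of the results below. The 250 bases before their RefSeq starts are shown so that these genes can be set side by side. For Hpgd and Lta4h these starts lie upstream of the gene starts given above. The sequences are those of RefSeq for GRCm38.p6, read 5′ to 3′ on the plus strand, which carries all 3 genes. They span chr1:150099781-150100030 for Ptgs2, chr8:56294302-56294551 for Hpgd and chr10:93453146-93453395 for Lta4h, and the Ptgs2 window overlaps an exon of the noncoding gene Ptgs2os. Capitals mark a match to the C/EBP palindrome TTGCGCAA, at 69 to 62 bases before the Ptgs2 start.
Ptgs2: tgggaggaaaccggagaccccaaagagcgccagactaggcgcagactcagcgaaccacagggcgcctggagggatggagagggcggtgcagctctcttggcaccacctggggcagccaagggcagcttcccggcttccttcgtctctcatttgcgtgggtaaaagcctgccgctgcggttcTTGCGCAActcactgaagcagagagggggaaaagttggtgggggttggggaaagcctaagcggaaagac
Hpgd: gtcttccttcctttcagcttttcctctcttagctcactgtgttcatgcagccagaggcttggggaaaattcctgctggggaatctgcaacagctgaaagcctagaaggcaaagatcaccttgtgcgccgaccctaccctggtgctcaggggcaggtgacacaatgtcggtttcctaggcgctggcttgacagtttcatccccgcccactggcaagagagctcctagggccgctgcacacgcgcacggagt
Lta4h: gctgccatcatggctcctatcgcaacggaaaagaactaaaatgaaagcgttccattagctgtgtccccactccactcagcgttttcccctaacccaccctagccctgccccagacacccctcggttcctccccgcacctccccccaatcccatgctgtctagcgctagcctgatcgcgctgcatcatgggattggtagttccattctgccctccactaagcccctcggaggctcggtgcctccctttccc
Windows were matched for 7 of the 9 members, and 6 motifs were searched on both strands: TTGCGCAA, the E-box CACGTG, the CRE core ACGTCA, the TATA box TATAAA, the STAT motif TTCNNNGAA and the AP-1 motif TGANTCA. The Ptgs2 match was the only hit in the 7 member windows, and 54 of 32851 windows of the same length (0.164%) held that palindrome. The other motifs stood in 6.02, 6.47, 12.4, 7.02 and 6.75% of all windows. A match is a description of letters and not evidence of binding, and the absence of one says only that these letters are not in the window.

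**Figure D1:**
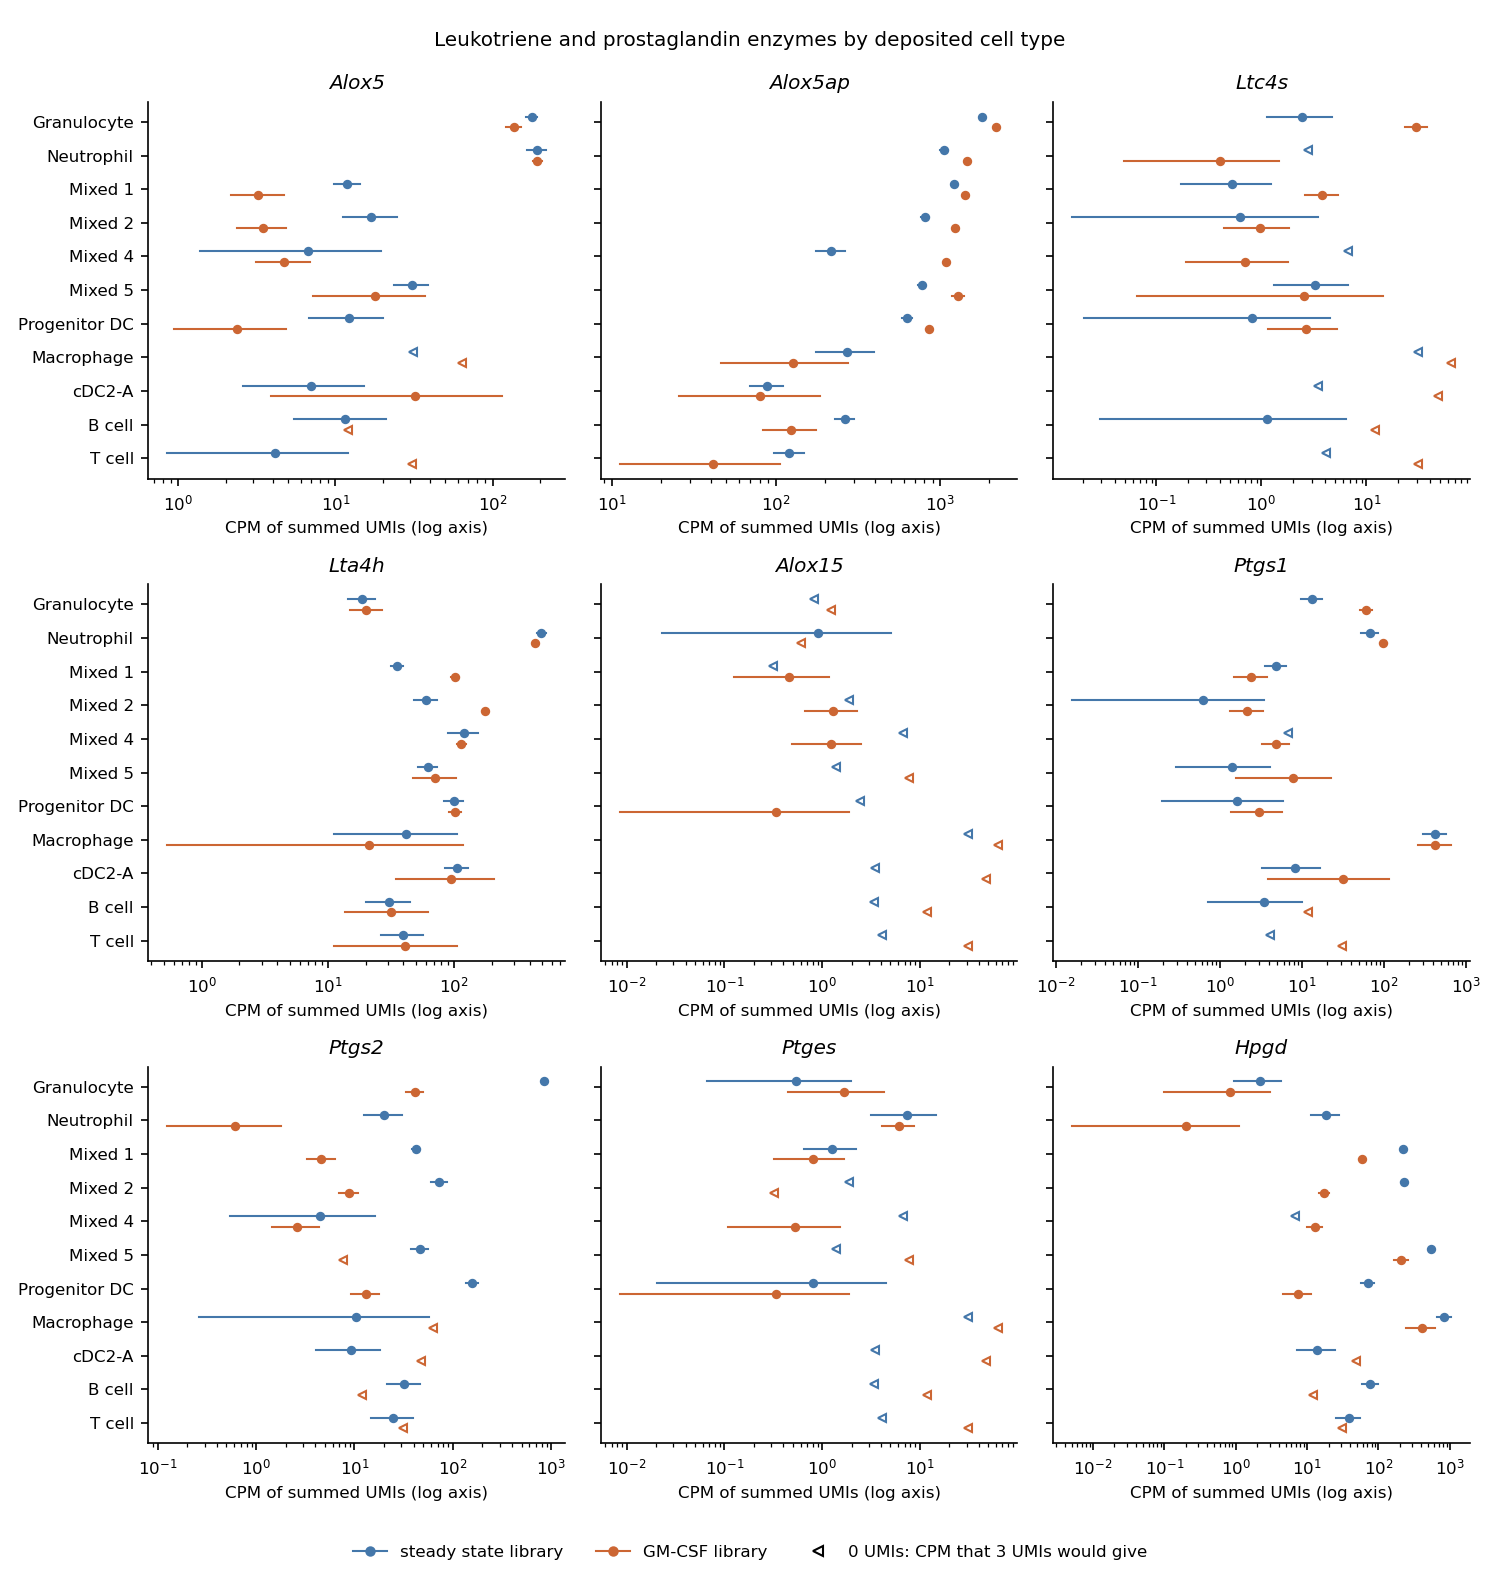
Level of each of the 9 members (CPM, log scale, 1 panel per gene) in the deposited cell types, with 1 point per library and bars for 95% counting intervals. Alox5 and Lta4h stood highest in the neutrophil type, Alox5ap and steady-state Ptgs2 in granulocytes, and Ptgs1 and Hpgd in macrophages. The activated DC type, with 8 and 20 cells, was left out.

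Alox5 was mainly a granulocyte and neutrophil gene. This enzyme, which oxidises arachidonic acid to leukotriene A4, stood at 191 CPM (95% interval 166 to 218) in steady-state neutrophils and 192 CPM (180 to 205) after GM-CSF. In granulocytes it stood at 177 CPM (164 to 191) in steady state and 137 CPM (122 to 152) after GM-CSF, 1.30-fold lower (1.13 to 1.48). In steady state the intervals of these 2 types overlapped, and after GM-CSF they did not. Every other cell type lay below them, with the next steady-state level at 30.7 CPM (23.7 to 39.0) in mixed cluster 5 and 0 UMIs in macrophages of either library. Granulocytes and neutrophils together held 77.8% of the Alox5 UMIs of the steady-state library and 92.5% of those of the GM-CSF library.

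In the bundle, Alox5 was a rare transcript that was rarer still after GM-CSF. It stood at 14.98 CPM in steady state (224 UMIs) and 3.73 CPM after GM-CSF (101 UMIs), 4.02-fold lower (3.16 to 5.13). In the whole bundle, 7 of the 9 members were past 2-fold, 3 higher and 4 lower after GM-CSF, where 20.1% of all genes tested were. Among these 7, Ltc4s, Alox15 and Ptges rested on few UMIs, 14 and 55, 0 and 24, and 13 and 11 in the 2 libraries. Mixed cluster 1 held 11.9 CPM of Alox5 in steady state and 3.23 CPM after GM-CSF, 3.67-fold lower (2.41 to 5.77), and without clusters 11, 14 and 15 it was 3.31-fold lower (2.03 to 5.60). Of the 20 mixed cluster 2 cells with an Alox5 UMI after GM-CSF, 19 were called doublets. Part of the bundle UMIs of Alox5 lay in the neutrophil-rich clusters 11, 14 and 15. Without these clusters the bundle levels were 10.7 and 1.80 CPM (141 and 47 UMIs), 5.92-fold lower (4.23 to 8.43).

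Alox5ap, which presents arachidonic acid to Alox5 and is needed for leukotriene synthesis in intact cells, was high in granulocytes, neutrophils and most of the bundle. The bundle held 65.2% of its UMIs in steady state and 72.4% after GM-CSF, and granulocytes and neutrophils together 32.9 and 27.4%. It stood at 1798 CPM (1755 to 1842) in steady-state granulocytes and 2205 CPM (2147 to 2266) after GM-CSF, a ratio of 1.23 (1.18 to 1.27). In neutrophils it stood at 1053 CPM in steady state and 1470 CPM after GM-CSF, a ratio of 1.396 (1.31 to 1.49). Mixed cluster 1 lay at 1212 and 1429 CPM, and progenitor DCs at 633 and 855 CPM. Each of these 4 ratios was above 1 and below 2. In B and T cells it stood at 264 and 121 CPM in steady state. Macrophages held 270 CPM (176 to 395) in steady state and 127 CPM (46.6 to 276) after GM-CSF. The wide gap in mixed cluster 4, 216 CPM in steady state and 1093 CPM after GM-CSF, narrowed from 5.06-fold (4.14 to 6.25) to 2.59-fold (2.07 to 3.28) once cells with 3 or more NK cell UMIs were set aside. In the 12 bundle clusters with at least 20 cells in each library, Alox5ap was higher after GM-CSF in 12.

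Cells that held both Alox5 and Alox5ap were frequent in the neutrophil type at full depth. There 72.6% of steady-state and 60.2% of GM-CSF cells had a UMI of each gene. In granulocytes 26.5% (24.6 to 28.6) of steady-state cells did, and 15.7% (14.03 to 17.5) of GM-CSF cells. The granulocytes were shallower after GM-CSF, with a median of 1229 UMIs against 1770. With each cell thinned to 1000 UMIs, which left out 496 GM-CSF and 8 steady-state granulocytes, the granulocyte shares were 12.96% (11.5 to 14.5) and 11.97% (10.3 to 13.9), and the neutrophil shares 15.1% (9.69 to 21.9) and 13.4% (11.2 to 15.8). At equal depth all 4 intervals overlapped, so neither the types nor the libraries were told apart by this share.

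Lta4h, the hydrolase that makes leukotriene B4, separated the neutrophil type from granulocytes and was higher in the bundle after GM-CSF. The bundle held 49.5% of its UMIs in steady state and 61.1% after GM-CSF. It stood at 496 CPM (455 to 539) in steady-state neutrophils and 442 CPM (423 to 461) after GM-CSF. In granulocytes it stood at 18.8 CPM (14.6 to 23.8) and 20.3 CPM (15.02 to 26.8). The neutrophil level in the GM-CSF library was 21.7-fold that of granulocytes (16.4 to 29.5). In that comparison 2 members were higher and 2 lower among the 7 tested, where 42.5% of all genes were past 2-fold. Since the types were drawn by clustering the RNA of these cells, the difference between them is a description. A UMI of Lta4h was found in 63.9% of GM-CSF neutrophils, whose median depth was 4404 UMIs, and 2.74% of granulocytes. At 1000 UMIs per cell the shares were 29.8 and 1.85%.

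Mixed cluster 1, the largest steady-state cluster of the bundle, held 35.5 CPM of Lta4h in steady state (338 UMIs) and 102 CPM after GM-CSF (887 UMIs), a ratio of 2.88 (2.54 to 3.28). Among the 7 members tested there, 2 were past 2-fold higher and 3 lower, where 15.4% of all genes were past 2-fold. Mixed cluster 2 held 60.1 and 177 CPM, a ratio of 2.95 (2.40 to 3.67). There 2 of 6 members were higher and 3 lower, where 15.8% of all genes were past 2-fold. The hydrolase was not higher everywhere, since progenitor DCs stood at 100.3 and 102 CPM, a ratio of 1.02 (0.825 to 1.27), and mixed cluster 5 at 62.8 and 71.6 CPM, a ratio of 1.14 (0.731 to 1.73). Mixed cluster 4 stood at 120.2 and 115 CPM, a ratio of 0.960 (0.727 to 1.29), but without the cells holding NK cell UMIs it stood at 59.5 and 115 CPM (11 and 662 UMIs), a ratio of 1.94 (1.08 to 3.90). Over the whole bundle the levels were 49.96 and 130.5 CPM, a ratio of 2.61 (2.41 to 2.83), and 48.3 and 129 CPM, a ratio of 2.66 (2.44 to 2.90), without clusters 11, 14 and 15. In 11 of the 12 bundle clusters with at least 20 cells in each library the GM-CSF level was the higher.

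**Figure D2:**
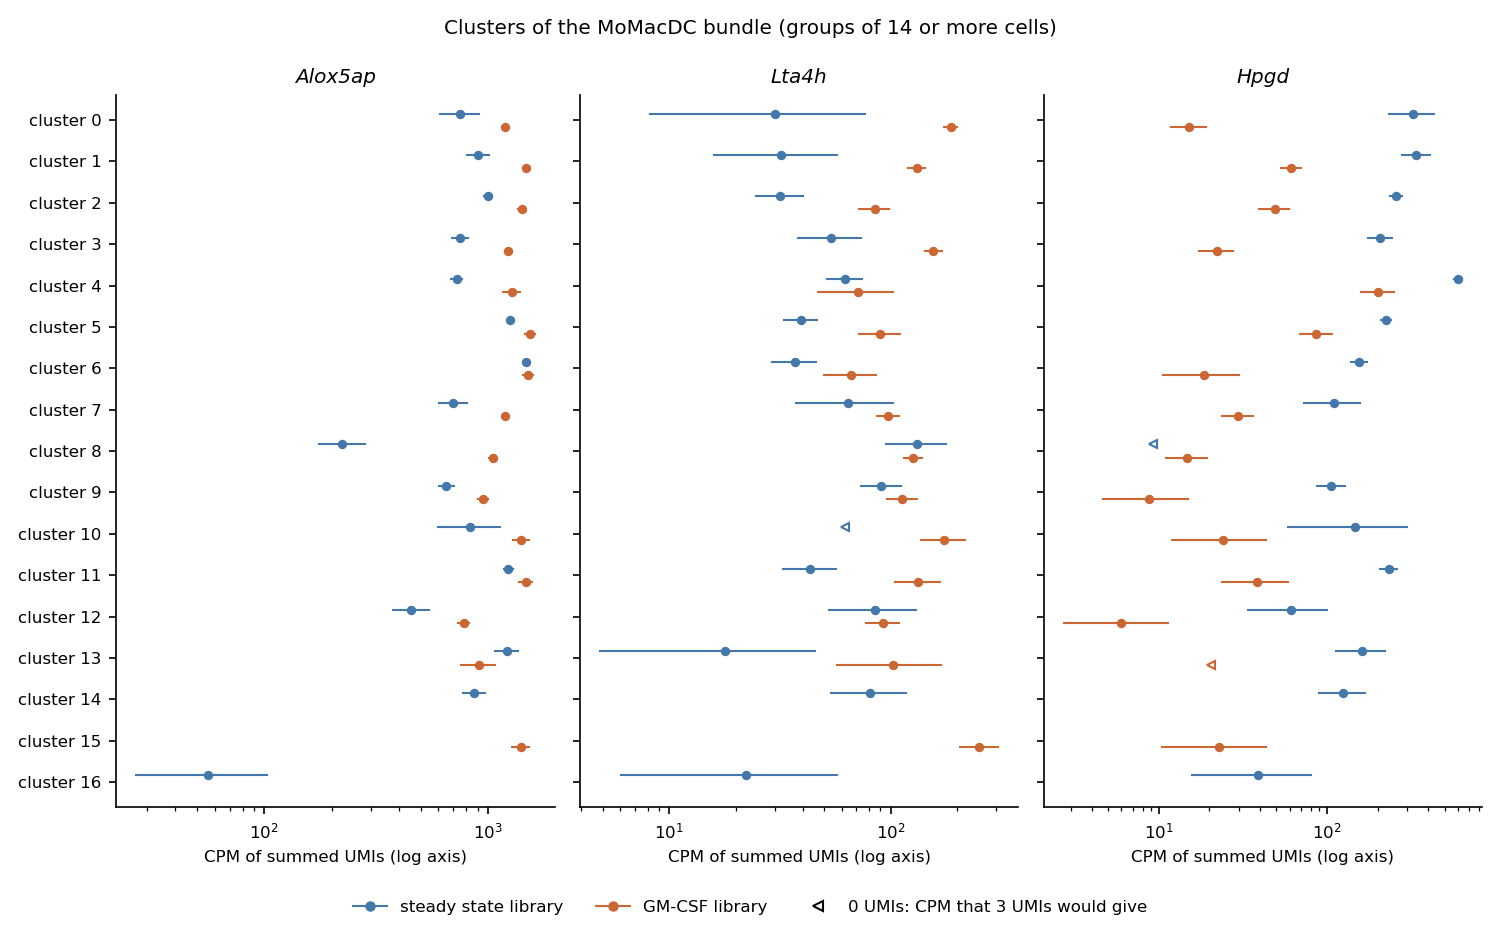
Level of Alox5ap, Lta4h and Hpgd (CPM, log scale) in the clusters of the MoMacDC bundle with at least 14 cells, with 1 point per cluster and library and bars for 95% counting intervals. The GM-CSF points of Lta4h lay above the steady-state points in 11 of the 12 clusters with at least 20 cells in each library, and those of Hpgd lay below them in 11. In cluster 8 the steady-state Hpgd sum was 0 UMIs in 28 cells.

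Ltc4s, the synthase that joins leukotriene A4 to glutathione, was scarce and was found mainly in granulocytes after GM-CSF. Granulocytes held 9 UMIs in 7 of 1929 cells in steady state (2.45 CPM, 1.12 to 4.65) and 72 UMIs in 64 of 1791 cells after GM-CSF (29.8 CPM, 23.3 to 37.6). The ratio was 12.2 (6.07 to 27.7). In granulocytes 2 members were past 2-fold higher and 1 lower among 6 tested, where 14.1% of all genes were past 2-fold. At 1000 UMIs per cell, 0.208% (0.0568 to 0.532) of steady-state and 3.24% (2.35 to 4.36) of GM-CSF granulocytes held a UMI. After GM-CSF, 0.224% of neutrophils did at a median depth of 4404 UMIs, so the granulocyte share was not a level that all cells of the library had. Of the 64 cells, 0 were called doublets. Ltc4s is known from eosinophils, basophils and mast cells. In GM-CSF granulocytes the eosinophil granule genes Epx and Prg2 and all 6 basophil and mast cell genes were at 0 UMIs. The 5 eosinophil genes (Siglecf, Epx, Prg2, Ccr3 and Il5ra) together stood at 32.7 CPM in steady state and 50.1 CPM after GM-CSF. The GM-CSF sum therefore came from Siglecf, Ccr3 or Il5ra. Granulocytes held 54.5% (45.7 to 63.2) of all Ltc4s UMIs of the GM-CSF library and 6.89% of its UMIs of any gene. In the small activated DC type 3 UMIs were counted in each library, in 2 of 8 steady-state and 3 of 20 GM-CSF cells.

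In mixed cluster 1, Ltc4s was at 5 UMIs in steady state and 33 after GM-CSF, 0.525 and 3.81 CPM, a ratio of 7.25 (2.81 to 23.8). In steady state its interval there, 0.171 to 1.23 CPM, overlapped that of granulocytes, and after GM-CSF, at 2.62 to 5.35 CPM, it lay below it. Cells with 3 or more basophil or mast cell UMIs held 0 of the 33. Over the bundle the ratio was 2.17 (1.19 to 4.22), from 14 and 55 UMIs, and thinning turned its direction.

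Alox15, a lipoxygenase that oxidises arachidonic acid at other carbons than Alox5 does, was close to absent. The steady-state library held 1 UMI, in a neutrophil, and the GM-CSF library 24, all in the bundle. The bundle stood at 0 UMIs in steady state and 0.886 CPM after GM-CSF, at least 4.42-fold higher when 3 counts are set for the 0. Mixed clusters 2 and 4 held 12 and 7 of the 24. At these counts no cell type stood apart from another.

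The constitutive cyclooxygenase, Ptgs1, was highest in macrophages. It stood at 415 CPM (297 to 565) in the 25 steady-state macrophages and 423 CPM (259 to 654) in the 22 after GM-CSF, and its intervals overlapped. Red pulp macrophage genes stood at 14385 and 13270 CPM in these cells. Neutrophils held 67.8 CPM (53.2 to 85.1) in steady state and 98.5 CPM (89.9 to 108) after GM-CSF, a ratio of 1.45 (1.14 to 1.88). In granulocytes Ptgs1 stood at 13.3 CPM (9.86 to 17.6) and 60.9 CPM (51.5 to 71.6), 49 and 147 UMIs, a ratio of 4.57 (3.29 to 6.45). Thinned to 1000 UMIs per cell, 1.67% (1.14 to 2.34) and 5.41% (4.24 to 6.78) of granulocytes held a UMI of it. Macrophages, with 0.135% of the UMIs of the GM-CSF library, held 2.72% of its Ptgs1 UMIs, and neutrophils held 66.0%.

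Ptgs1 was scarce in the bundle, with 3.48 CPM in steady state and 2.99 CPM after GM-CSF, and without clusters 11, 14 and 15 with 3.55 and 2.26 CPM, 1.57-fold lower (1.05 to 2.35). In mixed cluster 1 it stood at 4.83 and 2.42 CPM, 1.99-fold lower (1.17 to 3.52), just inside 2-fold, and without those clusters it was 2.61-fold lower (1.46 to 4.86). In mixed cluster 2, with 1 and 20 UMIs, 12 of the 19 GM-CSF cells that held it were called doublets, and the ratio with 0.5 counts added turned direction without doublets and without clusters 11, 14 and 15 (8 and 1 UMIs). In mixed cluster 4, 0 and 28 UMIs were counted, and the bound at 3 counts was below 1.

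Ptgs2, the inducible cyclooxygenase, showed the largest difference of the 9 members in granulocytes. They held 3139 UMIs in 865 of 1929 cells in steady state (854 CPM, 825 to 885) and 99 UMIs in 69 of 1791 cells after GM-CSF (41.0 CPM, 33.3 to 49.9). The level was 20.8-fold lower (17.04 to 25.7) after GM-CSF. Thinned to 1000 UMIs per cell, 36.5% (34.3 to 38.7) of steady-state and 2.93% (2.08 to 4.01) of GM-CSF granulocytes held a UMI. Of steady-state T cells, 4.60% held a Ptgs2 UMI at a median depth of 3747 UMIs and 1.16% at 1000 UMIs per cell. Of steady-state granulocytes, 44.8% did at a median of 1770 UMIs. Steady-state granulocytes reached 22 Ptgs2 UMIs in a cell and GM-CSF granulocytes 4. In neutrophils Ptgs2 stood at 20.2 CPM (12.6 to 30.5, 22 UMIs) in steady state and 0.608 CPM (3 UMIs) after GM-CSF, 33.2-fold lower (9.97 to 173). There 2 of 7 members were past 2-fold, both lower, where 10.1% of all genes were, and the other member, Hpgd, rested on 20 UMIs in 4 cells, with 12 in a single cell. Both neutrophil sums were close to the minimum of 20 UMIs, and 0 members met the rule without doublets, without the highest cell or at a minimum of 50 UMIs.

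Some genes that respond early to stimulation were also lower after GM-CSF. Of 8 such genes (Fos, Fosb, Jun, Junb, Egr1, Ier2, Dusp1 and Atf3, a list added after the data were seen), 4 were past 2-fold lower in GM-CSF granulocytes and 0 higher, where 14.1% of all genes were past 2-fold, and Jun, Junb, Ier2 and Dusp1 did not pass. Their summed level in granulocytes was 10919.5 CPM in steady state and 5645.5 CPM after GM-CSF. It was 4828 and 1347 CPM in mixed cluster 1 and 1096 and 732 CPM in neutrophils. Their part in the Ptgs2 difference was not tested.

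**Figure D3:**
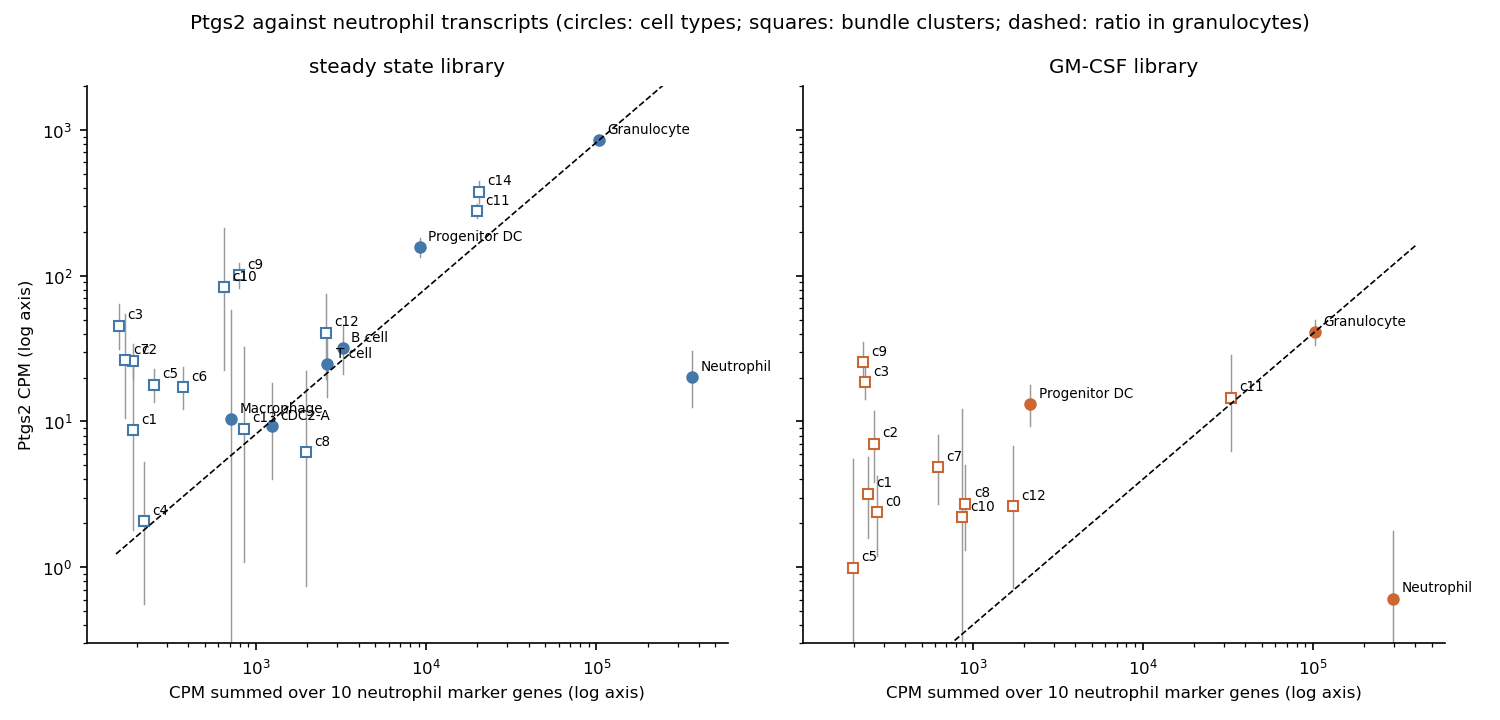
Ptgs2 level against the summed level of 10 neutrophil marker genes (both CPM, log scales) in cell types and bundle clusters, with 1 point per group and library. Groups with 0 Ptgs2 UMIs or under 20 cells and the mixed cell types are not drawn. In steady state granulocytes, B cells and T cells held 8.21, 9.88 and 9.44 Ptgs2 UMIs per 1000 neutrophil marker UMIs, and bundle cluster 9 held 127.

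Ptgs2 was lower after GM-CSF in each of the 6 clusters with at least 20 UMIs. Part of its bundle UMIs lay in clusters rich in neutrophil transcripts. Mixed cluster 1 stood at 42.4 and 4.62 CPM, 9.19-fold lower (6.63 to 13.1), and mixed cluster 2 at 72.7 and 8.80 CPM, 8.25-fold lower (6.17 to 11.1). Progenitor DCs stood at 156 CPM (135 to 180) and 13.1 CPM (9.30 to 17.9), 11.9-fold lower (8.43 to 17.3). In progenitor DCs 3 of 5 members were past 2-fold, all lower, where 16.9% of all genes were, and neutrophil transcripts stood at 9187 CPM in steady state and 2180 CPM after GM-CSF. Bundle clusters 11 and 14 held 352 and 130 of the 815 steady-state Ptgs2 UMIs of the bundle.

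With clusters 11, 14 and 15 set aside, the bundle stood at 24.7 and 6.43 CPM (326 and 168 UMIs), 3.83-fold lower (3.17 to 4.64), in place of 54.5 and 6.497 CPM, 8.39-fold lower (7.12 to 9.93). Mixed cluster 1 was then 4.52-fold lower (3.16 to 6.64), mixed cluster 2 was 4.56-fold lower (3.16 to 6.55) and progenitor DCs were 7.64-fold lower (5.22 to 11.4). Mixed cluster 5 went from 100 and 0 UMIs to 2 and 0. There 2 of 5 members were past 2-fold, both lower, where 12.8% of all genes were.

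The ratio of Ptgs2 to neutrophil transcripts differed between groups. In steady state, granulocytes held 8.21 Ptgs2 UMIs per 1000 neutrophil marker UMIs (7.92 to 8.50), B cells 9.88 (6.57 to 14.3), T cells 9.44 (5.60 to 14.9) and mixed cluster 2 held 8.02 (6.62 to 9.62), and these intervals overlapped. Bundle clusters 2, 3 and 9 held 139 (105 to 180), 289 (199 to 407) and 127 (103 to 154), clusters 5 and 6 held 71.0 (54.3 to 91.2) and 46.6 (33.0 to 64.0), and mixed cluster 1 and progenitor DCs 19.5 (17.6 to 21.5) and 16.998 (14.7 to 19.6). After GM-CSF, granulocytes held 0.401 (0.326 to 0.489), and clusters 2, 3 and 9 held 26.8 (14.6 to 44.9), 79.3 (61.0 to 102) and 113 (80.0 to 155). In cluster 9 the intervals of the libraries overlapped, so there Ptgs2 and neutrophil transcripts were lower together. In those 3 clusters the Ptgs2 level was 26.1, 45.4 and 100.9 CPM in steady state and 7.05, 18.6 and 25.6 CPM after GM-CSF. In all 12 bundle clusters with at least 20 cells in each library, the GM-CSF level was the lower. Some of these rest on few UMIs in steady state and after GM-CSF, with 4 and 0 in cluster 4, 2 and 10 in cluster 8 and 10 and 4 in cluster 12. The neutrophil-rich cluster 11 is among the 12.

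**Figure D4:**
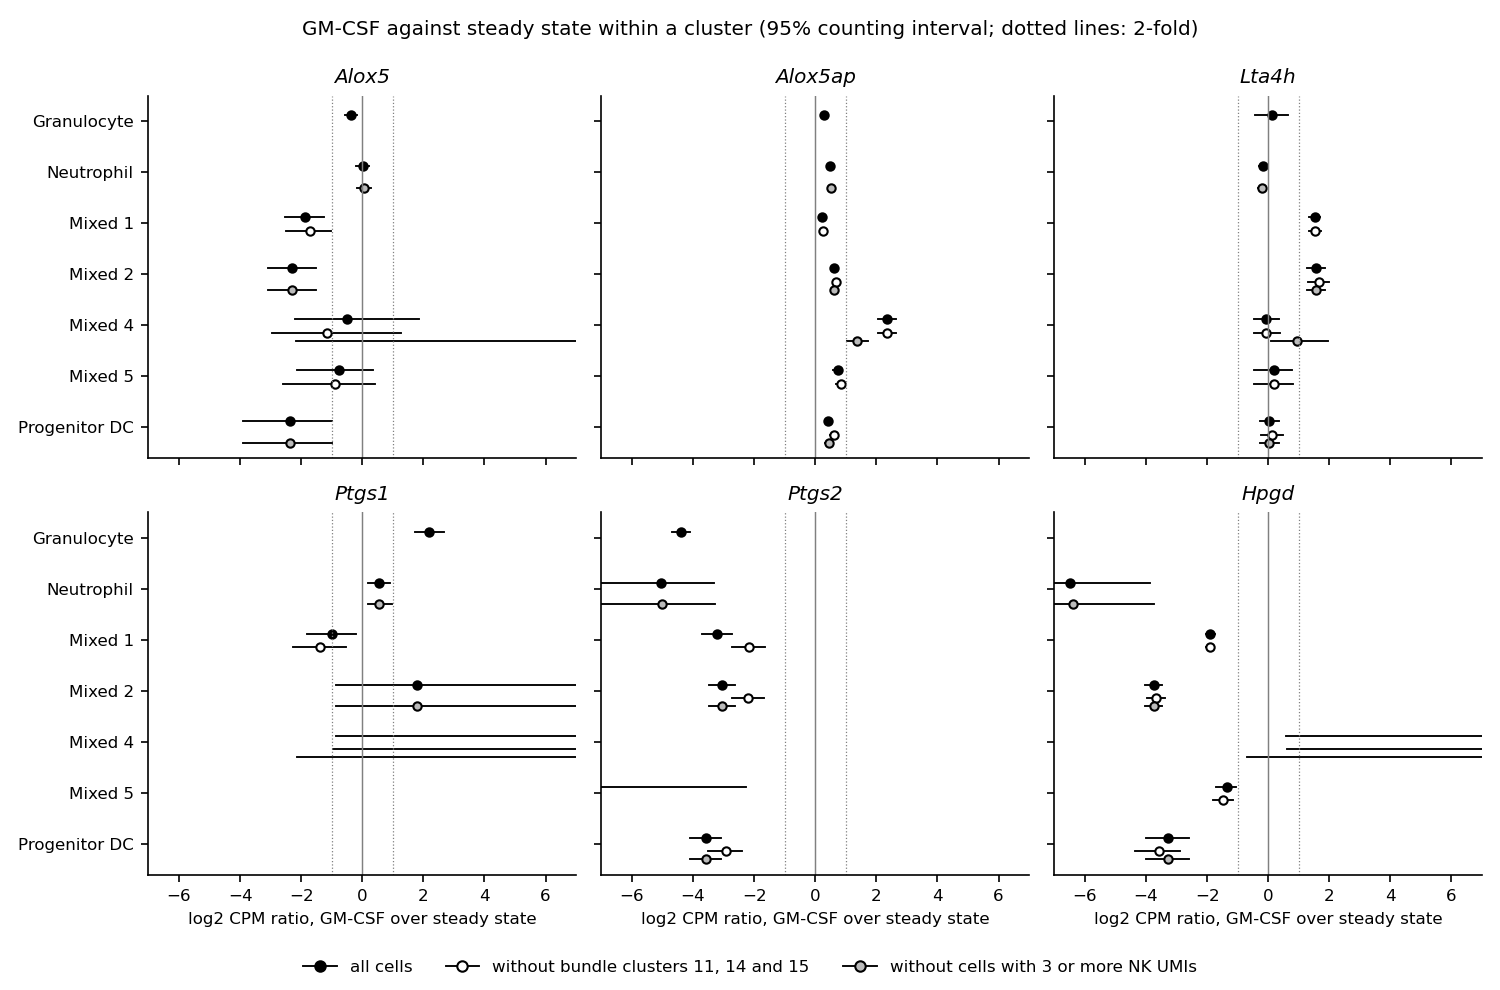
Log2 ratio of GM-CSF to steady-state level for 6 members in each cluster, with 1 point per setting (all cells, without the neutrophil-rich bundle clusters 11, 14 and 15, without cells holding NK cell UMIs) and bars for 95% counting intervals. Lines without a point are comparisons with 0 UMIs on a side, and comparisons under 20 UMIs are not drawn. In mixed clusters 1 and 2, Ptgs2 and Hpgd lay below 0 and Lta4h above 0.

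Ptges, the synthase that turns prostaglandin H2 into prostaglandin E2, was hardly detected. Neutrophils held 8 UMIs in steady state (7.33 CPM, 3.17 to 14.4) and 30 after GM-CSF (6.08 CPM, 4.10 to 8.68). Granulocytes held 2 and 4. In the GM-CSF library the neutrophil level was 3.67-fold that of granulocytes (1.29 to 14.3). In the bundle 13 and 11 UMIs were counted, 2.14-fold lower after GM-CSF with an interval from 0.885 to 5.28, which includes no difference.

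Hpgd, the dehydrogenase that inactivates prostaglandin E2, was found mainly in the bundle and was lower there after GM-CSF. The bundle held 94.0% of the Hpgd UMIs of the steady-state library and 97.5% of those of the GM-CSF library. It stood at 247 CPM in steady state (3689 UMIs) and 31.2 CPM after GM-CSF (844 UMIs), 7.92-fold lower (7.35 to 8.54), and 8.11-fold lower (7.51 to 8.76) without clusters 11, 14 and 15. Mixed cluster 1 stood at 218 CPM (209 to 227) and 58.5 CPM (53.5 to 63.8), 3.72-fold lower (3.38 to 4.11). Mixed cluster 2 stood at 230 CPM (208 to 255) and 17.2 CPM (14.6 to 20.1), 13.4-fold lower (11.1 to 16.3). Mixed cluster 5 held the highest level of the bundle in both libraries, 539 CPM (508 to 571) and 210 CPM (167 to 260), 2.57-fold lower (2.05 to 3.25). Progenitor DCs stood at 71.2 and 7.38 CPM, 9.65-fold lower (5.99 to 16.2).

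Macrophages stood above the bundle in steady state, at 830 CPM (658 to 1033) with 80 UMIs, and at 402 CPM (242 to 628) with 19 UMIs after GM-CSF. Granulocytes held 8 and 2 UMIs. B and T cells held 67 and 28 UMIs in steady state and 0 after GM-CSF, and the 28 lay in 3 T cells that were all called doublets. In mixed cluster 4 the direction was the other way, with 0 UMIs in the 43 steady-state cells and 73 after GM-CSF, at least 1.91-fold higher when 3 counts are set for the 0. Most steady-state cells of this cluster held NK cell transcripts, and without them the lower limit of the ratio was 0.622. In mixed cluster 4, 3 of 5 members were past 2-fold higher and 0 lower, where 28.9% of all genes were past 2-fold, and 2 of the 3 rest on a sum of 0.

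The steady-state Hpgd level spread widely among bundle clusters, from 0 to 599 CPM with a median of 182 CPM over the 12 clusters with at least 20 cells in each library. The 0 was that of cluster 8, from only 28 steady-state cells, and cluster 8 was the only one of the 12 with a higher GM-CSF level. After GM-CSF the same clusters ranged from 5.94 to 200.2 CPM with a median of 26.8 CPM. Cluster 4 was the highest in both, at 599 and 200.2 CPM. In mixed clusters 1 and 5, summed marker genes of non-classical monocytes, the patrolling monocytes of blood, moved with Hpgd. These 5 genes were Nr4a1, Ace, Treml4, Cd300e and Spn, and they were not read 1 by 1 here. Per 1000 UMIs of these genes, the steady-state cells held 202 Hpgd UMIs in mixed cluster 1 (194 to 211) and 125 in mixed cluster 5 (118 to 132). The GM-CSF cells held 220 (201 to 240) and 107 (85.4 to 133). Within each of these clusters the 2 intervals overlapped, while in mixed cluster 2 the values were 314 (282 to 347) and 182 (155 to 212). The part of these transcripts in the Hpgd difference was not tested. These values are sums over the cells of a cluster. Whether fewer cells of a type or less RNA per cell lay behind them was not tested.

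The CD115hi subsets were gated on antibody tags within the bundle, whose cells had been chosen by their RNA. P-I cells are Ly6C+, P-II Ly6C- MHC II-, P-III Ly6C- MHC II+ CD301b- and P-IV Ly6C- MHC II+ CD301b+. The counts here are those of the deposited labels and differ from the cell numbers of P-I to P-IV in the study's supplement. P-I held 139 and 187 cells in the 2 libraries. After GM-CSF, P-III held 126 and P-IV 313, while P-II held 8 in each library, and P-III and P-IV held 12 and 7 in steady state, so that the comparison over libraries was made for P-I only. Between the libraries 1 of 5 members was past 2-fold higher and 2 lower in P-I, where 15% of all genes were past 2-fold.

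In P-I, Hpgd stood at 218 CPM (191 to 247) in steady state and 37.3 CPM (27.8 to 48.9) after GM-CSF, 5.84-fold lower (4.31 to 8.05). A UMI of Hpgd was found in 51.1 and 15.5% of these cells, at median depths of 7264 and 7232 UMIs. Lta4h stood at 39.3 CPM (28.5 to 53.0) and 105 CPM (88.4 to 123), a ratio of 2.66 (1.88 to 3.83). Both differences had the direction of the bundle as a whole. The small steady-state P-III and P-IV subsets held 394 CPM (269 to 556) and 406 CPM (254 to 614) of Hpgd, from 32 and 22 UMIs. Ptgs2 stood at 36.6 and 2.15 CPM, from 40 and 3 UMIs, but without clusters 11, 14 and 15 both libraries held 2 UMIs. Alox5 held 16 and 11 UMIs, and its interval included no difference.

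Within the GM-CSF library, P-III against P-I had 0 of 3 tested members past 2-fold, where 6.68% of all genes were. Lta4h was 1.498-fold higher in P-III (1.16 to 1.93), at 157 against 105 CPM, and Alox5ap stood at 1352 and 1327 CPM. Alox5 had 0 UMIs in the 126 P-III and 313 P-IV cells and 11 UMIs in P-I, which puts P-III at least 1.94-fold lower than P-I at 3 counts, but only 6 UMIs in P-I without clusters 11, 14 and 15, where the interval of the ratio reached 1.49. P-IV against P-III had 1 of 3 members past 2-fold, where 6.24% of all genes were. This was Hpgd, at 14.2 CPM (9.74 to 20.1) in P-IV and 48.7 CPM (34.1 to 67.4) in P-III, 3.42-fold lower (2.06 to 5.69). Lta4h stood at 177 CPM in P-IV and 157 CPM in P-III, a ratio of 1.13 (0.916 to 1.4002), which includes no difference.

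**Figure D5:**
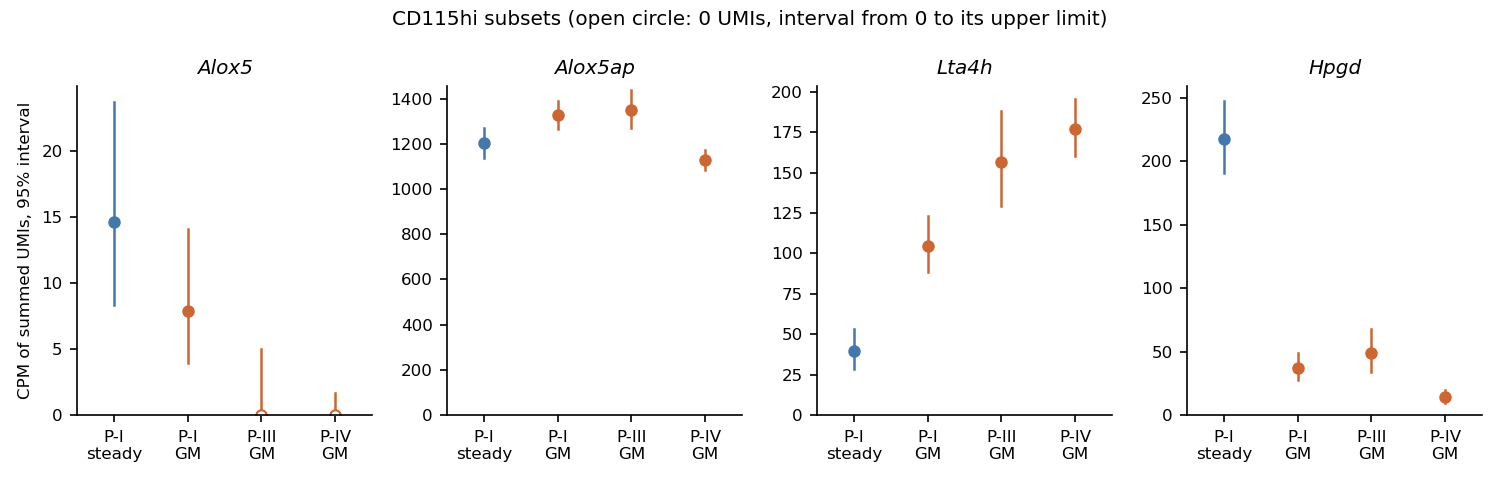
Level of Alox5, Alox5ap, Lta4h and Hpgd (CPM) in the subset P-I of both libraries and, for the GM-CSF library, also P-III and P-IV. Bars are 95% counting intervals. Lta4h stood at 39.3, 105, 157 and 177 CPM in this order, and Hpgd at 218, 37.3, 48.7 and 14.2 CPM.

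The antibody tags were also read over all cells of the bundle, and cells of each library were split into tertiles by each of the 5 tags. After GM-CSF, Hpgd in the upper tertile was 0.320 of its level in the lower tertile for MHC II (0.266 to 0.384), 0.325 for CD11c (0.268 to 0.393) and 0.385 for CD301b (0.317 to 0.465). In steady state the ratio for CD11c was 1.67 (1.54 to 1.82) and for MHC II 1.13 (1.04 to 1.22), which is the other direction. For CD301b it was 0.808 (0.745 to 0.876), the same direction as after GM-CSF. Lta4h was higher in the upper CD301b tertile after GM-CSF, at a ratio of 1.61 (1.48 to 1.76), and lower in steady state, at 0.607 (0.506 to 0.727). Tags were ranked by raw counts. Steady state held only 7 cells of the CD301b+ subset P-IV, so its CD301b tertiles may rank mainly low counts. Alox5 in the GM-CSF library followed Ly6C, with 88 UMIs in the upper and 7 in the lower tertile, a ratio of 9.54 (4.44 to 24.4). Without clusters 11, 14 and 15 it was 36 and 7 UMIs, a ratio of 4.31 (1.89 to 11.5). In steady state the Alox5 ratio for Ly6C was 0.972 (0.683 to 1.39), from 81 and 56 UMIs, which includes no difference. Steady-state Ptgs1 was higher in the upper Ly6C tertile, with 37 and 2 UMIs, and 36 and 1 without those clusters. The tertiles hold cells of the same 2 libraries and are not replicates.

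Cell cycle phase also set some members apart. In the bundle, Hpgd stood at 260 CPM (250 to 269) in G1 cells and 86.6 CPM (69.8 to 106) in G2/M cells of the steady-state library, and at 37.1 CPM (34.2 to 40.2) and 10.8 CPM (8.45 to 13.6) after GM-CSF. Within each phase the GM-CSF level was the lower. Lta4h was higher in G2/M than in G1 in steady state, at 77.2 against 46.7 CPM, and lower after GM-CSF, at 105 against 142 CPM. The steady-state G2/M sum was 82 Lta4h UMIs. Steady-state mixed cluster 4, where 27 of 43 cells held NK cell transcripts, had 54 Lta4h UMIs and 0 Hpgd UMIs. The phases were not read without cells holding NK cell UMIs, so their part in these phase differences was not tested. The phase calls are those deposited with the cells and were made from their RNA.

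Of 48 other genes of the eicosanoid pathway, listed by function, 28 were tested in the whole bundle and 7 were past 2-fold higher and 6 lower after GM-CSF, where 20.1% of all genes were past 2-fold. Their median log2 ratio was 0.02, beside -0.07 over all genes tested. Among the leukotriene genes, Mgst1, a glutathione transferase of membranes, stood at 346 CPM in steady state and 48.7 CPM after GM-CSF (log2 ratio -2.83), Mgst3 of the same family at 13.4 and 38.9 CPM (1.53) and the leukotriene receptor Cysltr1 at 21.4 and 67.8 CPM (1.66). Among the others, Lpcat2, which attaches fatty acids to lysophospholipids, stood at 68.9 and 16.4 CPM (-2.08), the prostaglandin D synthase Hpgds at 6.49 and 1.62 CPM (-1.99) and the prostaglandin E2 receptor Ptger2 at 6.02 and 1.77 CPM (-1.76). Listed genes with either direction were thus found in the bundle. In P-I 4 of 23 listed genes were higher and 4 lower, where 15% of all genes were past 2-fold, and in mixed cluster 1 6 and 5 of 28, where 15.4% were.

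In granulocytes 5 of 21 listed genes were past 2-fold higher after GM-CSF and 0 lower, where 14.1% of all genes were past 2-fold, with a median log2 ratio of 0.52 beside 0.15 over all genes. Ltb4r1, the receptor for leukotriene B4, stood at 84.6 CPM in steady state and 237 CPM after GM-CSF (log2 ratio 1.49), and Mgst1 at 362 and 735 CPM (1.02). Mgst2, a transferase that can also make leukotriene C4, stood at 7.08 and 21.1 CPM (1.57), the carbonyl reductase Cbr1 at 2.99 and 8.29 CPM (1.44) and Cysltr1 at 2.18 and 5.39 CPM (1.27). In neutrophils, where 10.1% of all genes were past 2-fold, 0 of 22 listed genes were higher and 1 lower, the prostaglandin E2 receptor Ptger4 at 25.7 and 9.52 CPM (-1.44). In mixed cluster 2, 6 of 28 were higher and 4 lower beside 15.8% of all genes past 2-fold. In mixed cluster 5, 4 of 19 were higher and 5 lower beside 12.8%, and in progenitor DCs 3 of 23 were higher and 7 lower beside 16.9%. Mixed cluster 4 had 13 of 25 higher and 0 lower beside 28.9%, and its steady-state cells are those with NK cell transcripts.

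Neutrophils and granulocytes of the GM-CSF library were also set side by side, and 9 of 24 listed genes were past 2-fold higher and 8 lower in neutrophils, where 42.5% of all genes were past 2-fold. Ptgr1, a reductase that inactivates prostaglandins and leukotriene B4, had 209 UMIs (42.3 CPM) in neutrophils and 0 in granulocytes. Mgst2 stood at 307 and 21.1 CPM and Ggt1, a peptidase that processes leukotriene C4, at 13.6 and 1.66 CPM. Pla2g7, which degrades platelet-activating factor, went the other way at 52.1 and 813 CPM. The aldo-keto reductase Akr1b3 stood at 17.02 and 3.73 CPM and the prostacyclin receptor Ptgir at 29.8 and 4.97 CPM. Between P-III and P-I of the GM-CSF library, 0 of 23 were higher and 2 lower beside 6.68% of all genes, Mgst1 at 8.11 and 91.1 CPM and Ptgr1 at 13.5 and 35.1 CPM, and between P-IV and P-III 0 of 22 were past 2-fold beside 6.24%.

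The genes whose levels followed each member most closely were ranked by Pearson correlation of log2(CPM + 10) over the 23 groups of cell type and library with at least 20 cells, among 9751 genes. These groups share 2 libraries and their depths, so the values are a description. For Alox5 they were Chil1 (0.952), Slco4c1 (0.948) and Mmp9 (0.945). For Alox5ap they were Fes (0.949), Arl11 (0.947) and Spi1 (0.936), the last a transcription factor of myeloid cells. For Lta4h they were Pxylp1 (0.831), Ltf (0.806) and 1810055G02Rik (0.805), the lowest values of the 6 members ranked. For Ptgs1 they were Cystm1 (0.920), Acot1 (0.901) and Galc (0.886). For Ptgs2 they were Irg1 (0.913), Il1b (0.890) and Tmem88 (0.856), and for Hpgd they were Adgre4 (0.963), Itgb5 (0.941) and Ctsb (0.920).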

How the data were processed

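CITE-seq RNA and tag libraries of 2 conditions were analysed, 1 of each per condition. The UMI counts were deposited by the authors as raw whole numbers per gene and cell, made with Cell Ranger 3.0.2 on mm10 and filtered by the authors to cells of 200 to 5000 genes and at most 15% mitochondrial expression. The percentage of mitochondrial UMIs, a percent per cell, was deposited by the authors, as were cell types, clusters, phases and subsets, which rest on Seurat (3.6.0 in the submitters' processing notes). The tag counts were also deposited by the authors. Whether reads were counted by strand is not given in the sources used here.

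For each group, UMIs of a gene were added up over its cells with Python 3.11.15, NumPy 2.4.6, SciPy 1.17.1 and pandas 2.3.3 and divided by the total UMIs of the group. CPM intervals are exact Poisson, ratios use an exact binomial interval and shares an exact Clopper-Pearson interval, all at 95% and for counting error only. Cells were thinned to 1000 UMIs (seed 20) where shares of cells were compared, which left out 38 steady-state and 578 GM-CSF cells. Scrublet (in Scanpy 1.11.5) marked likely doublets in each library, and these cells stayed in the main values. The 2-fold rule was tested on simulated data. The 12 comparisons and the alternatives (thinning, doublets, scaling, minimum UMIs, added counts, the highest cell, mitochondrial share, and tertiles or likeness by another rule) had no replicates, so no test was run. Sets without cells holding NK cell or basophil genes and without neutrophil-rich clusters were added after seeing the data.

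All 9 members were named. Of the pathway genes, up to 6 per comparison could be named, those past 2-fold with the largest log2 ratio. For each member with at least 200 UMIs the 3 genes most alike were named. The members and lists were chosen with earlier results of these data known. Gene positions are from the GRCm38 annotation and upstream sequences from RefSeq for GRCm38.p6. Protein sequences were not used here.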

Additional observations from a re-analysis of the deposited data

Results flagged for a closer look

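The GM-CSF to steady-state difference of Hpgd had the opposite sign in mixed cluster 4 to that in the other clusters with at least 20 UMIs, and this difference between clusters was not tested. The log2 CPM ratio was 3.53 in mixed cluster 4, against -5.95 in neutrophils, -1.90 in mixed cluster 1, -3.74 in mixed cluster 2, -1.35 in mixed cluster 5 and -3.25 in progenitor DCs. The value in mixed cluster 4 rests on 0 steady-state UMIs in 43 cells, of which 27 held 3 or more NK cell UMIs, and at 3 counts its bound was 1.91-fold. The neutrophil value rests on 20 UMIs in 4 steady-state cells and 1 UMI after GM-CSF.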

How the results depend on the processing

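Of the 38 log2 ratios of members past 2-fold, read without reapplying the minimum of 20 UMIs, 34 were still past it after thinning each cell to 1000 UMIs, 38 under each of the 2 other scalings, 37 without called doublets, 37 without cells at 5% mitochondrial UMIs or more, 37 without cells holding NK cell UMIs and 35 without the neutrophil-rich bundle clusters. The counts of members past 2-fold do reapply that minimum, so a member can drop out of a count while its ratio stays past 2-fold, and they moved by over 1.5 times in these cases. With thinning the count was 1 in neutrophils (2 without it), 3 in mixed cluster 1 and 3 in mixed cluster 2 (5 in each), 1 in mixed cluster 4 and 1 in progenitor DCs (3 in each), 4 in the whole bundle (7) and 0 for P-IV against P-III (1). With no minimum of UMIs it was 5 in granulocytes, 5 in progenitor DCs and 5 in P-I (3 in each), 3 for P-III against P-I (0) and 2 for P-IV against P-III. In neutrophils it was 0 without doublets, 0 at a minimum of 50 UMIs and 0 without the highest cell. With no counts added, which leaves out genes at 0 in a group, it was 1 in mixed cluster 4 and 1 in mixed cluster 5 (2). Without the neutrophil-rich clusters it was 3 in mixed cluster 2 and 1 in mixed cluster 5. For P-III against P-I it was 1 without cells at 5% mitochondrial UMIs or more and 2 with both libraries pooled.

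The direction turned for Ptgs1 in mixed cluster 2, with a log2 ratio of -0.27 after thinning, -0.19 without doublets and -0.20 without the neutrophil-rich clusters. After thinning it also turned for Ptgs1 in mixed cluster 4 (-2.32), Hpgd in mixed cluster 4 (-0.00246) and Ltc4s in the whole bundle (-0.22). Scaling by the median ratio of all genes shifted log2 ratios by -0.15 in granulocytes, 0.20 in mixed cluster 4, 0.11 in progenitor DCs and 0.33 between neutrophils and granulocytes, where 5 members were past 2-fold in place of 4. With Spearman correlation, 0 of the 3 genes most like Lta4h and 0 of those most like Ptgs1 were kept. No paired analysis was possible because each condition had 1 RNA library. With 1 library per condition, differences between mice, runs and conditions cannot be told apart. Members with under 200 UMIs in all (Ltc4s, Alox15 and Ptges) could not be resolved in most groups. A comparison of the members' proteins was planned and not run.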
